A study of Mus musculus with 4 samples.

Results

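Interferon-stimulated genes are the genes that a cell switches on after interferons bind its receptors. The 39 genes described here were given by name, not by any measured value: 31 are known chiefly as targets of type I interferon (the alpha and beta interferons), and 8 as targets of interferon gamma, although many respond to both. All 39 were found among the 54456 gene symbols of the count matrices. They were followed across the cell classes of single-cell RNA-seq libraries from mouse liver.

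The study sequenced non-parenchymal liver cells, the cells of the liver other than hepatocytes, from C57BL/6J mice of 30 weeks, some on a high fat diet (HFD) and some under exercise. Its labels give 4 groups (S, E, HFD_sed, HFD_EXE) of 1 library; S and E are not spelled out, and nothing says how many animals a library holds. Livers were dissociated with enzymes, red cells lysed and dead cells removed before 10x Genomics 3′ capture. The matrix of the E library was not analysed here, so HFD_sed was set against S, and HFD_EXE against HFD_sed. The label S names no diet, and HFD_sed and HFD_EXE share the diet; strain and age are the same in all groups. With 1 library per group there were no replicates and no test: the intervals below cover counting error only, and a difference between libraries cannot be told apart from a difference between animals, days or preparations. Both comparisons use the same HFD_sed library, so a value high or low in it alone moves them in opposite directions, and they are set side by side only.

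Interferons act through receptor pairs and the JAK kinases. Type I interferon leads to a complex that includes Stat2 and Irf9 and binds the interferon-stimulated response element in promoters, whereas interferon gamma acts through the gamma-activated site and leads to Irf1, a transcription factor that binds elements much like the former. In liver, sinusoidal endothelium and macrophages line the blood spaces and meet microbial products from the gut, and T and NK cells are the usual makers of interferon gamma.

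The promoters of the members carried these elements often. The RefSeq promoter table (mouse build GRCm38.p6, 250 bases before to 50 after each gene start) held 29 of the 39 members. The letters GAAANNGAAA, the core of the interferon-stimulated response element, were searched on both strands and found in 18 of those 29 (62.1%), against 3.99% of all 27025 genes of the table. The letters TTCNNNGAA, those of the gamma-activated site, which read alike on both strands, were found in 8 (27.6%), against 9.55%. Among the interferon gamma members with an entry, 5 of 7 held the first and 3 of 7 the second. The windows below are those of members whose levels are described further on; they read 5′ to 3′ on the strand of the gene, with the matched letters in capitals, and a match is a description of letters and not a shown binding site.
Isg15 (GRCm38.p6, chr4:156200855-156200916, minus strand, 3 overlapping matches): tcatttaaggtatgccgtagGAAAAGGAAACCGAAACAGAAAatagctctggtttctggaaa
Ifit1 (chr19:34640765-34640833, plus strand, 2 matches): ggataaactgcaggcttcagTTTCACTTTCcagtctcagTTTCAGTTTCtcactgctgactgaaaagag
Ifit3 (chr19:34583353-34583402, plus strand; Ifit3b holds the same letters at chr19:34607749-34607798, plus strand): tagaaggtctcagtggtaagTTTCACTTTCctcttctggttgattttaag
Rsad2 (chr12:26456543-26456592, minus strand): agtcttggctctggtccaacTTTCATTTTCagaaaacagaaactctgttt
Bst2 (chr8:71537567-71537622, minus strand, 2 overlapping matches): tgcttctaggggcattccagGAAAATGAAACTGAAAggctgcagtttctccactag
Gbp2 (chr3:142620584-142620633, plus strand): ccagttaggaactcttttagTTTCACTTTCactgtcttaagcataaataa
Gbp3 (chr3:142559979-142560034, plus strand, 2 overlapping matches): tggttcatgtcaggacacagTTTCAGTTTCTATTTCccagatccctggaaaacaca
Irgm1 (chr11:48871421-48871470, minus strand, 2 overlapping matches): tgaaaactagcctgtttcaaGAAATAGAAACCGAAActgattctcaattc
Irf1, gamma-activated site (chr11:53769904-53769952, plus strand): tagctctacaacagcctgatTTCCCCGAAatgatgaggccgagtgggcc
Igtp, gamma-activated site (chr11:58199491-58199539, plus strand): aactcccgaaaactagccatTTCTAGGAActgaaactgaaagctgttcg
In Bst2 a gamma-activated site overlapped the first of the shown matches, and the Igtp window also holds a match of the response element, left in lower case, after the gamma-activated site. Isg15 and Ifi44 are both described below for their levels in endothelium; the Isg15 window held 3 matches of the response element, and neither set of letters was found in the 300 bases of Ifi44. The same held for Cmpk2, Ifi47, Irf7, Irf9, Oasl1, Oasl2 and Xaf1, which says only that these letters are not in this window. The table had no entry for Oas2, Mx1, Mx2, Usp18, Zbp1, Ifi27l2a, Rtp4, Dhx58, Parp14 and Iigp1.

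The 3 matrices held 11280 to 11752 cell barcodes and 60901242 to 84666844 unique molecule counts (UMIs); the labels state a capture of 5000 to 6000 cells. After filters and removal of doublets 10172 to 10740 cells were kept per library, with a median of 4179.5 to 6150 UMIs. The number of cell barcodes found in both libraries of a pair ranged from 30 to 43. Cells were clustered jointly, with all interferon genes left out of the clustering, and clusters were named from fixed marker genes, so each name below stands for cells like that type. In 9 classes there were at least 100 cells in each library: liver sinusoidal endothelial cells (LSEC, 3001, 2456 and 5125 cells in S, HFD_sed and HFD_EXE), T cells (945, 2787 and 790), Kupffer cells (2197, 668 and 1037), B cells (688, 1007 and 490), neutrophils (670, 480 and 621), other vascular endothelium (268, 177 and 392), monocytes (199, 1282 and 155), conventional dendritic cells (128, 369 and 125) and NK or ILC1 cells (357, 475 and 111). They held 82.8%, 90.3% and 87.0% of the kept cells. Clusters with both LSEC and hepatocyte markers, or both dendritic and T cell markers, held 12.7%, 1.43% and 4.39% and were left out.

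Levels are the UMIs of a gene relative to all UMIs of its class and library, on the CPM scale. A gene counts as measured at 20 or more UMIs over both libraries, and is called higher or lower past 1.5-fold when the exact 95% interval of the ratio excludes 1. The share of all measured genes called the same way in the same class is the background. Reads of Oas1a can be shared with Oas1g (56.1% of the 50-base words at its 3′ end), those of Ifit3 with Ifit3b (14.9%) and those of Ifitm3 with Ifitm2 and pseudogenes (14%), so the values of these genes are uncertain.

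Which cells carried these transcripts differed by gene. Averaged over the 3 libraries and over 13 classes with at least 30 cells in each, 8 members were highest in neutrophils, 7 in macrophages led by Mmp12, 6 in plasmacytoid dendritic cells (pDC), 4 each in Kupffer cells and monocytes, 2 each in LSECs, other vascular endothelium and T cells, and 1 each in NK or ILC1 cells, cholangiocytes, conventional dendritic cells and hepatocytes. In 15 members the same class was highest in all 3 libraries. What sets the differences between classes was not tested, and no class here is an untreated control for another.

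Among the transcription factors, Irf1 was highest in neutrophils at 285, 561 and 215 CPM in S, HFD_sed and HFD_EXE. Irf7, the factor that amplifies type I interferon production, was highest in Kupffer cells at 345, 335 and 375 CPM, whereas LSECs held 33.4, 63.2 and 30.4 CPM. Stat2, a subunit of the complex that type I interferon forms, was highest in pDCs at 171, 142 and 177 CPM. Irf9, its DNA-binding partner, was spread most evenly of the 4, from 50.2 CPM on average in hepatocytes to 101 CPM in pDCs.

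Among the sensors of foreign nucleic acid, Zbp1, which binds left-handed nucleic acid, was highest in monocytes at 86.1, 154 and 137 CPM and low in both endothelial classes. Ddx58, which encodes the RNA sensor RIG-I, was highest in NK or ILC1 cells at 77.5, 99.6 and 95 CPM, and Ifih1, which encodes the sensor MDA5, in Mmp12 macrophages at 61.2, 89.9 and 107 CPM. Dhx58, a regulator of those sensors, was also highest in Mmp12 macrophages, at 39.2, 44.3 and 33.2 CPM. The macrophage and monocyte classes were thus the highest for 3 of the 4 sensors.

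The antiviral effectors were highest in different classes. Rsad2 encodes viperin, an enzyme that makes a chain-terminating nucleotide, and stood at 278, 552 and 375 CPM in neutrophils and 218, 226 and 244 CPM in LSECs. Bst2 encodes tetherin, which holds virus particles at the cell surface and is a known marker of mouse pDCs; it stood at 2972, 3466 and 3230.3 CPM in pDCs. Ifitm3, which blocks fusion of viruses in endosomes, was highest in monocytes at 2092, 2642 and 2579 CPM. Oasl2, of the oligoadenylate synthetase family of double-stranded RNA sensors, was highest in neutrophils at 282, 255 and 283 CPM. The Ifit proteins bind foreign RNA ends: Ifit2 and Ifit3 were highest in Mmp12 macrophages, and Ifit3b in other vascular endothelium, in the mean over the libraries.

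The GTPases of the interferon gamma response attack the vacuoles of intracellular microbes. Gbp2 was highest in neutrophils, Gbp3 in Kupffer cells, Gbp7 in other vascular endothelium, Igtp and Ifi47 in T cells, and Irgm1 in LSECs. Iigp1 was highest in the hepatocytes carried over into the preparation at 617, 881 and 703 CPM, and next in other vascular endothelium at 590.2, 634 and 344 CPM and LSECs at 559.9, 514 and 239 CPM. Hepatocyte RNA was also present in other classes, as described at the end.

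**Figure D1:**
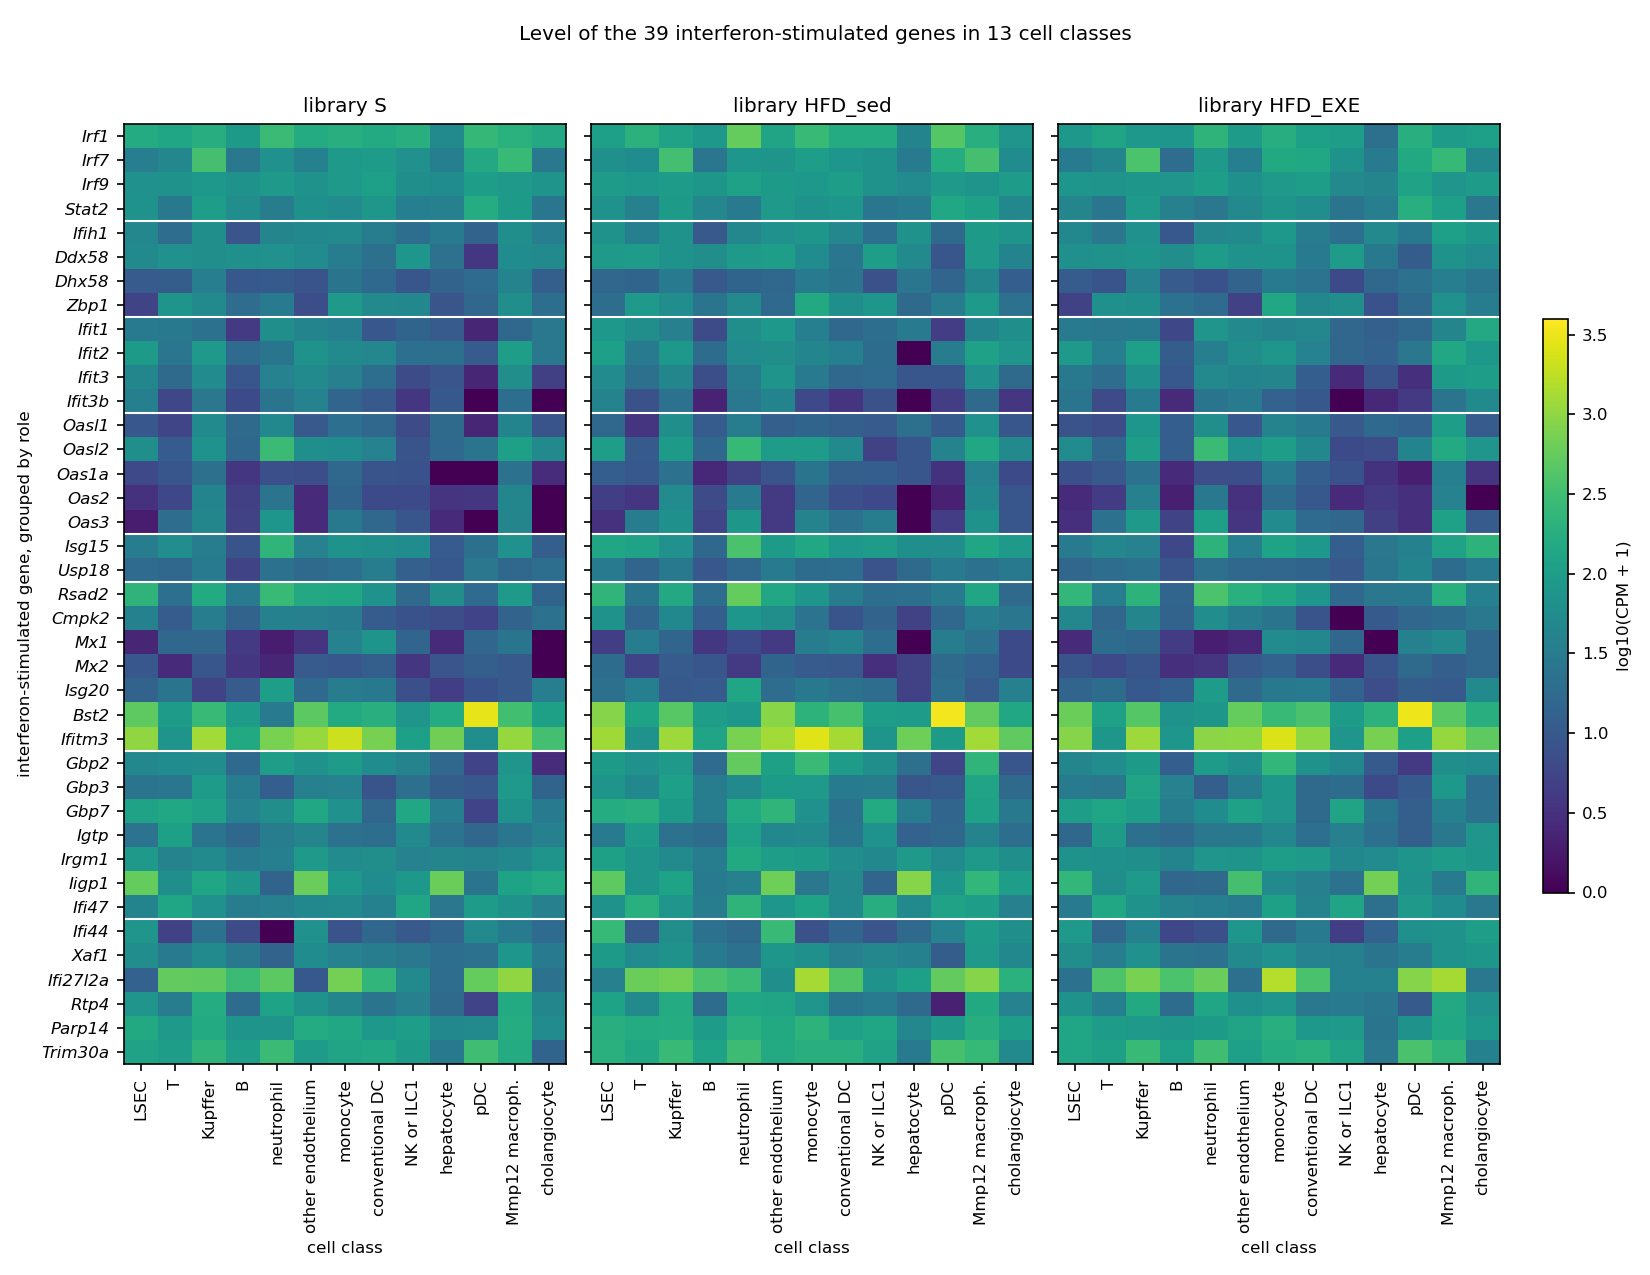
Level of each of the 39 members, as log10(CPM + 1) in colour, in 13 cell classes (columns) of the S, HFD_sed and HFD_EXE libraries (panels), with rows grouped by role. Bst2 stands out in pDCs, Ifitm3 and Ifi27l2a in monocytes, Iigp1 in hepatocytes and endothelium, and Ifi44 is brighter in both endothelial classes of HFD_sed than of the other libraries.

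In LSECs, the cells with pores that line the liver sinusoids, most members were higher in HFD_sed than in S, and most were lower in HFD_EXE than in HFD_sed. Of 39 measured members, 25 were called higher in HFD_sed than in S, where 14.8% of all measured genes of the class were, and 1, Irf1, was called lower, beside 9.11% of all genes. The median log2 ratio of the members was 0.71, and that of all measured genes 0.07. In HFD_EXE against HFD_sed, 27 of 39 were called lower, beside 12.1% of all genes, and 0 higher, beside 8.22%; the median log2 ratio was -0.76, against -0.06 over all genes.

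Isg15 encodes a ubiquitin-like protein that is attached to other proteins, and it differed most by the interval bound. It stood at 32, 133 and 28.5 CPM in S, HFD_sed and HFD_EXE, a log2 ratio of 2.05 (95% interval 1.93 to 2.17) for HFD_sed over S and of -2.22 (95% interval -2.34 to -2.10) for HFD_EXE over HFD_sed. HFD_sed was thus the high library, and S and HFD_EXE lay within a few CPM of each other. Usp18, the protease that removes the protein and damps the type I receptor, stood at 17.4, 28.5 and 14.6 CPM and was called in both comparisons.

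Ifi44, a cytoplasmic protein of unclear role, stood at 74.7, 259.8 and 87.9 CPM, log2 1.80 (95% interval 1.72 to 1.88) and -1.56 (95% interval -1.64 to -1.49). Zbp1 stood at 4.46, 18.3 and 4.19 CPM, log2 2.04 and -2.13, and the GTPase gene Gbp3 at 23.5, 71.7 and 28.8 CPM, log2 1.61 and -1.31. Ifit1 stood at 28.3, 81.2 and 30.9 CPM, log2 1.52 and -1.39. In each of these genes HFD_sed was the highest library. Zbp1 averaged 126 CPM in monocytes, and stood at 30.7, 70.1 and 23.3 CPM over all cells of the libraries. The part of RNA from other cells in its LSEC level was not tested.

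By role, all 5 oligoadenylate synthetase genes were called higher in LSECs of HFD_sed than of S (median log2 0.86), with Oasl2 at 61.6, 101 and 54.4 CPM, and 4 of 5 were lower in HFD_EXE. Of 7 other antiviral effectors 5 were higher (median 0.81), among them Bst2 at 510.1, 892 and 608 CPM and Cmpk2, a nucleotide kinase, at 37.1, 69.1 and 45.7 CPM. Rsad2 and Ifitm3 were not called in either comparison, with 218, 226 and 244 CPM for Rsad2. Of the 4 sensors 3 were higher, and Dhx58, at 9.84, 14.3 and 10.1 CPM, was not called. Of the Ifit family only Ifit1 was called higher, while Ifit2 stood at 89.4, 106 and 87.9 CPM and was not called in either comparison.

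The transcription factors went apart. Irf7 was called higher in HFD_sed (33.4, 63.2 and 30.4 CPM), Irf9 and Stat2 were not (66.3, 95.5 and 76.8 and 68.8, 70.8 and 42.3 CPM), and Irf1 was lower, at 164, 107 and 81 CPM (log2 -0.62 (95% interval -0.71 to -0.54) for HFD_sed over S). Irf1 is an early target of interferon gamma and was the only member called against the majority here. Iigp1 was also lower in HFD_sed than in S, but was not called.

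The GTPases of the interferon gamma response were called more often in the second comparison than in the first in LSECs. Of 7, 3 were called higher in HFD_sed than in S (Gbp2, Gbp3 and Ifi47), whereas all 7 were called lower in HFD_EXE than in HFD_sed, with a median log2 ratio of -1.03. Iigp1 stood at 559.9, 514 and 239 CPM, with S near HFD_sed and HFD_EXE low, and Irgm1 at 84.4, 111 and 70.6 CPM, with S between the other libraries. The summed level of the 8 interferon gamma members was 1060.3, 1163 and 612 CPM: S and HFD_sed were close, and HFD_EXE was the low library. That sum rested largely on Iigp1 and Irf1, which stood lower in HFD_sed than in S. The other 6 members were each highest in HFD_sed, as most type I members were. The summed level of 28 type I members, taken without the abundant Ifitm3, Bst2 and Ifi27l2a, was 1360.2, 2176 and 1359 CPM, where S and HFD_EXE were close and HFD_sed was high.

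LSECs of the 3 libraries fell mostly into different clusters: 98.6% of the S cells into cluster 1, 90.6% of the HFD_sed cells into cluster 2 (led by Esm1, Depp1 and Angpt2) and 85.8% of the HFD_EXE cells into cluster 0. Within cluster 1 alone, 86 HFD_sed cells held 28 type I members at 2368 CPM, against 1358 CPM in 2959 S cells and 1120.5 CPM in 577 HFD_EXE cells. There 14 of 39 members were called higher in HFD_sed than in S, beside 5.79% of all genes, and 14 of 30 lower in HFD_EXE than in HFD_sed, beside 6.44%. In cluster 2, 21 of 39 were lower in HFD_EXE than in HFD_sed (149 against 2224 cells), beside 6.21%, and in cluster 0, 13 of 39 (4399 against 146 cells), beside 5.69%. The second comparison thus had the same direction in all 3 clusters as over the class, while the first could be made in cluster 1 only. At a clustering resolution of 0.5 a cluster led by the same genes as cluster 2 held 2184 HFD_sed cells. It passed 4 markers of other vascular endothelium, its best type, but was left without a name, since its leading genes held more mesothelial markers. At resolution 1 cluster 2 passed 4 LSEC markers, and clusters 0 and 1 passed 7 each, so its LSEC name is less sure. At resolution 0.5 LSECs of HFD_sed came from clusters with 242 and 114 cells of that library. Of the members 18 were then higher and 2 lower in HFD_sed than in S, and 20 lower and 1 higher in HFD_EXE. These counts have no share of all genes beside them.

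Immediate early genes, which respond within minutes to stress and to dissociation of tissue, moved the same way in LSECs: 12 of 13 were called higher in HFD_sed than in S and 10 of 13 lower in HFD_EXE, with a summed level of 3284, 8603 and 4902 CPM. Of 8 heat shock genes 4 were higher and 3 lower, with a sum of 616, 846 and 602 CPM. Median UMIs per LSEC were 7545, 5432.5 and 5387, and hepatocyte transcripts (12 genes such as Alb) summed to 1149.8, 819 and 803 CPM. The part of these measures in the differences was not tested.

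Other vascular endothelium, a single cluster led by Rspo3, Vwf and Bmp4, showed the same directions. Of 36 measured members, 18 were called higher in HFD_sed than in S, beside 11.8% of all genes, and 0 lower, beside 7.33%. In HFD_EXE against HFD_sed 19 of 36 were lower, beside 10.6%, and 0 higher, beside 7.52%. The medians of the members were 0.55 and -0.66, those of all genes 0.09 and -0.09.

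Ifi27l2a, a small mitochondrial or nuclear membrane protein induced by interferon, stood at 8.85, 61.4 and 20.3 CPM in this endothelium, log2 2.79 (95% interval 2.09 to 3.56) and -1.60 (95% interval -2.12 to -1.08). It averaged 1189 CPM in monocytes, and stood at 300, 549 and 255 CPM over all cells of the libraries. The part of RNA from other cells in its endothelial level was not tested. Ifi44 stood at 66.2, 277 and 76.4 CPM, Gbp3 at 35.4, 91.7 and 31.4 CPM and Isg15 at 38.8, 91.7 and 34 CPM. HFD_sed was the high library for all 4. Rsad2 (146, 143 and 191 CPM) and Ifit2 (66.6, 59.9 and 59.1 CPM) were again not called. Summed, the 28 type I members stood at 1278, 1966 and 1268 CPM and the interferon gamma members at 1169.8, 1416 and 783 CPM. Immediate early genes summed to 4098, 6539 and 5213 CPM (8 of 13 called higher, then 4 of 13 lower) and hepatocyte transcripts to 1018, 421 and 598 CPM; their part was not tested. At a coarser clustering resolution of 0.5 this class held other cells, and 8 members were higher and 4 lower in HFD_sed than in S. The share of all genes in that re-made class is not given, so these counts have no background.

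**Figure D2:**
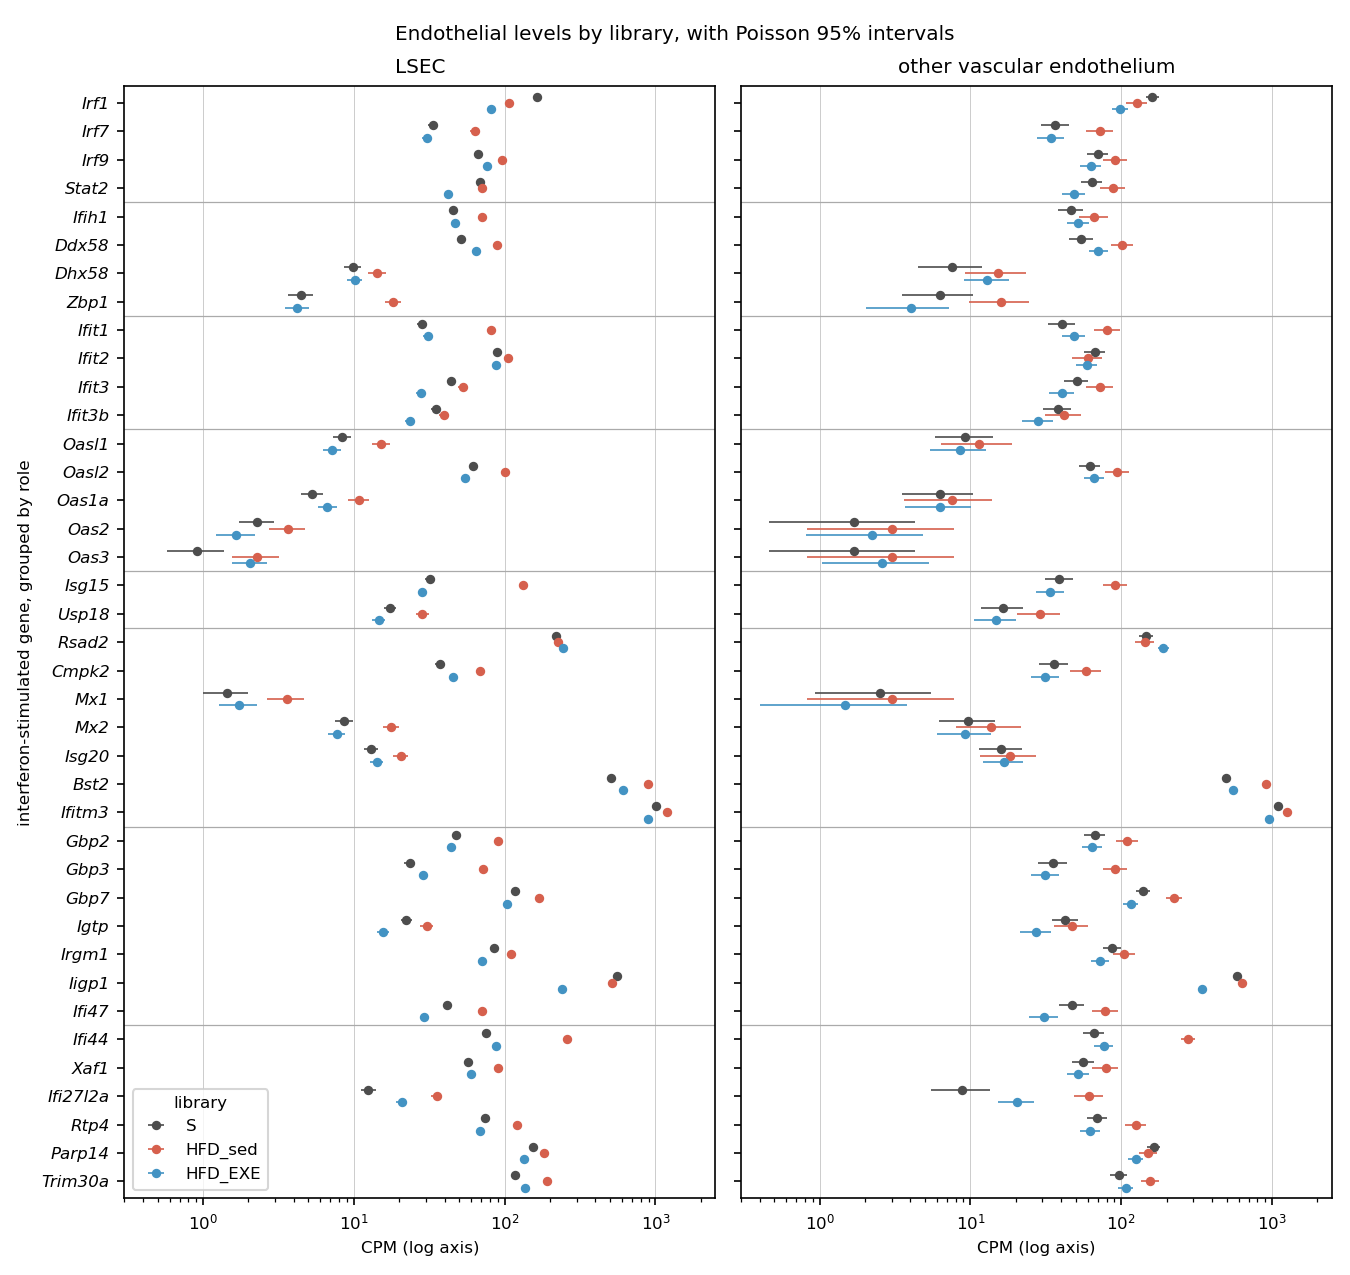
Level in CPM (log axis) of each member in LSECs (left) and other vascular endothelium (right), with 1 point per library and bars for exact Poisson 95% intervals. The HFD_sed point lies to the right of both others for Isg15, Ifi44, Zbp1 and Gbp3 in both panels, while the points of Rsad2 lie close together and Irf1 is highest in S.

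In neutrophils the interferon gamma members stood out. All 8 were called higher in HFD_sed than in S, with a median log2 ratio of 1.96, and all 8 lower in HFD_EXE than in HFD_sed, with a median of -1.81. Gbp2 stood at 99.1, 549.9 and 95.7 CPM, log2 2.47 (95% interval 2.25 to 2.70) and -2.52 (95% interval -2.76 to -2.29). Ifi47 stood at 36.2, 222 and 34.3 CPM, Irgm1 at 35.3, 152 and 74.7 CPM, Igtp at 32.4, 114 and 26.6 CPM and Gbp3 at 11, 51.9 and 11.3 CPM. HFD_sed was the high library for each.

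Over all 36 members measured in neutrophils, 16 were higher and 1 lower in HFD_sed than in S, where 15.6% and 16.9% of all genes were. In HFD_EXE against HFD_sed, 13 were lower and 3 higher, beside 12.9% and 17.8%. Of the type I members 8 of 28 were higher in HFD_sed, among them Rsad2 (278, 552 and 375 CPM), Isg15 (226, 372 and 211 CPM) and Parp14, an ADP-ribosyltransferase (72.4, 195 and 91.1 CPM). Ifi44 had no UMI in S neutrophils and 16.5 CPM in HFD_sed, at least 11.5-fold higher against a floor of 3 counts in that library. Ifi27l2a went the other way, at 489, 286 and 589 CPM, and Oasl1 and Ifit3 were higher in HFD_EXE than in HFD_sed.

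These differences moved with the make-up of the class. Neutrophils fell into cluster 7, led by Retnlg, S100a9 and S100a8, and cluster 20, led by Acod1, Il36g, Slc7a11 and Cxcl2, genes known from activated neutrophils. Cluster 20 held 23, 306 and 36 cells of S, HFD_sed and HFD_EXE, or 3.43%, 63.8% and 5.80% of the class. Its interferon gamma members summed to 4310.5, 2659 and 2636 CPM, against 441, 479.7 and 403 CPM in cluster 7, so in all 3 libraries cluster 20 stood above cluster 7. The type I sum was 5822, 3192 and 4040.2 CPM in cluster 20 and 1933, 2159 and 2261 CPM in cluster 7. Within cluster 7 alone, 4 of 34 members were higher in HFD_sed than in S, beside 6.35% of all genes, and 2 of 34 lower in HFD_EXE than in HFD_sed, beside 5.49%, while 3 were higher, beside 9.45%. Immediate early genes summed to 25281.5, 30435 and 32639 CPM in neutrophils, with HFD_EXE the highest, and hepatocyte transcripts to 4008, 1231 and 2296 CPM. Their part was not tested.

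**Figure D3:**
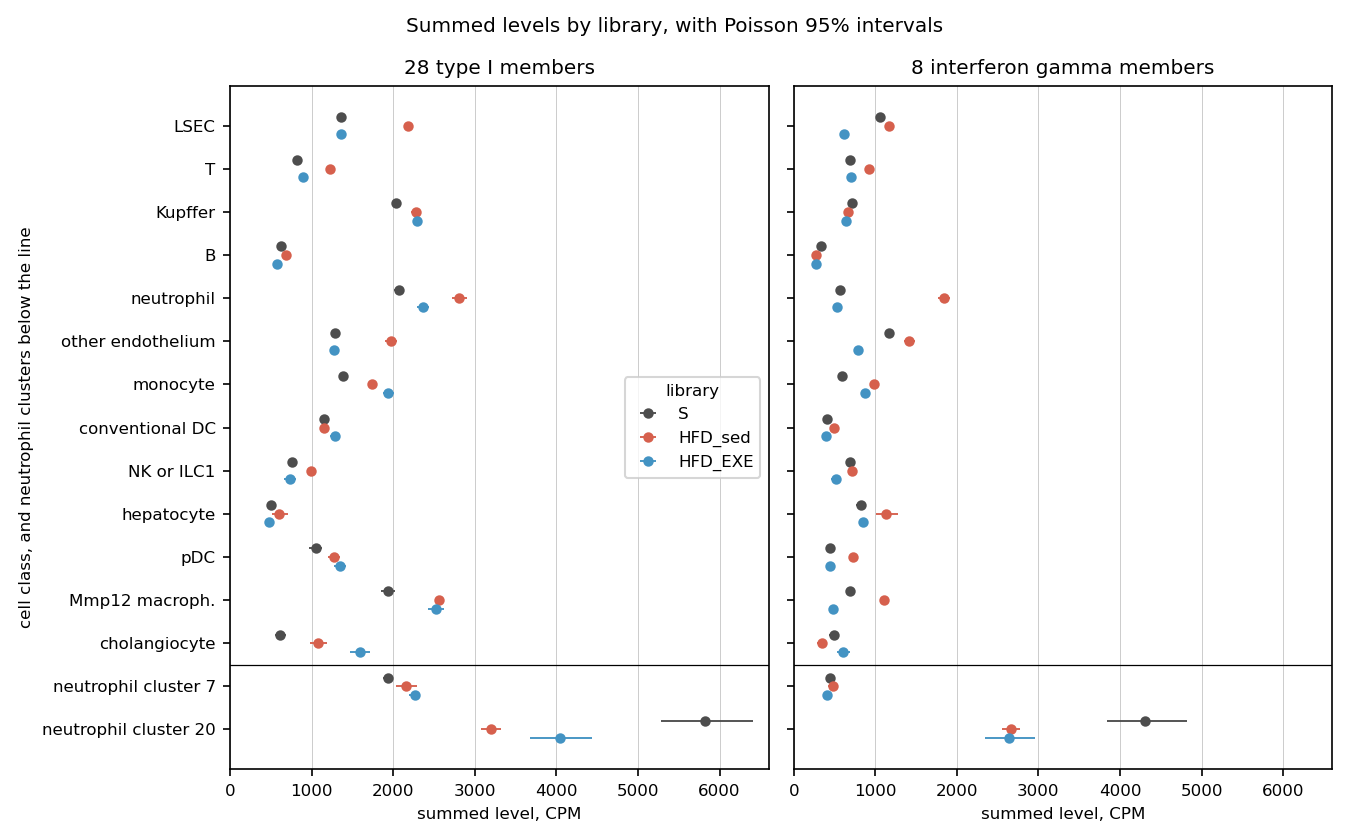
Summed CPM of 28 type I members (left) and of the 8 interferon gamma members (right) in each class, with 1 point per library, exact Poisson 95% intervals, and both neutrophil clusters below the line. HFD_sed lies highest in LSECs, other vascular endothelium and T cells on the left, and far to the right in neutrophils on the right, where cluster 20 lies above cluster 7 in every library.

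In T cells fewer members differed, and again mostly upward in HFD_sed. Of 39, 13 were higher and 1 lower in HFD_sed than in S, beside 10.2% and 10.3% of all genes, and 10 were lower and 3 higher in HFD_EXE than in HFD_sed, beside 8.64% and 9.37%. Isg15 stood at 56.3, 118 and 45.6 CPM, log2 1.07 (95% interval 0.89 to 1.25) and -1.37 (95% interval -1.60 to -1.15). Ifit1 stood at 27.2, 59.5 and 27 CPM, Parp14 at 84.5, 160.4 and 95.7 CPM and Mx1, a dynamin-like antiviral GTPase, at 15.4, 31.1 and 17.9 CPM. HFD_sed was the high library for all of these. Oas2 was the 1 member called lower in HFD_sed (5.09, 2.74 and 3.19 CPM), and Oasl1, Oasl2 and Ifi44 were higher in HFD_EXE than in HFD_sed, with Ifi44 at 4.10, 9.26 and 14.5 CPM.

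T cells also divided unevenly. Cluster 6, led by Cd8a, Cd8b1 and Gzmk, held 59.8% of the HFD_sed T cells and 6.46% and 11.4% of those of S and HFD_EXE, where cluster 10 (led by Il2rb and Cxcr6) was the largest. In HFD_sed against S the members called higher were 4 of 37 in cluster 6 (beside 6.01% of all genes), 5 of 34 in cluster 10 (6.1%), 5 of 37 in cluster 11, led by Dapl1 and Lef1 (5.79%), and 12 of 35 in cluster 13, led by Tnfrsf4, Ctla4 and Cd4 (11.7%). With HFD_EXE set against HFD_sed the members called lower were 4 of 37 (5.27%), 4 of 34 (4.98%), 8 of 35 (5.16%) and 12 of 35 (6.26%) in the same order. Cluster 13 showed the most calls. In cluster 6, 3 of 37 members were lower in HFD_sed than in S, near the 7.87% of all genes, and fewer than the 4 higher. With HFD_EXE set against HFD_sed 6 of 37 were higher there, beside 6.04%, more than the 4 lower, unlike over the class. With free RNA of the whole library subtracted, 11 members were higher and 6 lower in HFD_EXE over all T cells. With the profile of cells under 1000 UMIs 5 were higher and 10 lower. Both pairs of counts have no share of all genes beside them. Immediate early genes summed to 6355, 9512 and 5325 CPM over all T cells (6 of 13 higher, then 8 of 13 lower) and hepatocyte transcripts to 1335, 554 and 674 CPM; their part was not tested.

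NK or ILC1 cells showed Isg15 at 55.4, 96.5 and 10.8 CPM, the last with an interval of 3.95 to 23.4 CPM in 111 cells. Of 37 measured members 8 were higher and 1 (Iigp1) lower in HFD_sed than in S, beside 6.83% and 8.36% of all genes. Of 32, 7 were lower and 0 higher in HFD_EXE, beside 5.62% and 5.53%. Oas3 was at 8.07, 31.8 and 14.3 CPM and Ifit3 at 5.92, 17.2 and 1.79 CPM. Cluster 18 held 62.7% of these cells in HFD_sed, but 28.3% in S and 12.6% in HFD_EXE. In cluster 16, the other cluster of the class, 3 of 29 members were higher and 5 lower in HFD_sed than in S, beside 5.45% and 6.87%. Lower calls thus outnumbered higher calls there, unlike over the class, though on few calls. Immediate early genes summed to 7568, 10027 and 5673 CPM in this class, and their part was not tested.

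B cells held the lowest summed type I level of the 9 classes, 626, 679 and 573 CPM, and few members differed. Of 37, 3 were higher (Ifi44, Mx2 and Isg15) and 4 lower (Iigp1, Ifit3b, Rsad2 and Oasl1) in HFD_sed than in S, beside 5.71% and 8.73% of all genes. Of 36, 7 were lower and 0 higher in HFD_EXE than in HFD_sed, beside 6.13% and 3.91%. Ifi44 stood at 5.88, 20.7 and 4.94 CPM and Isg15 at 7.61, 15.4 and 4.94 CPM. These rest on few UMIs, for Isg15 on 22, 49 and 9, and with at least 100 UMIs per gene 2 members were lower in HFD_EXE. With free RNA of the whole library subtracted 8 were higher and 0 lower there, and with the profile of cells under 1000 UMIs 0 and 7. These counts are given without a share of all genes. Immediate early genes summed to 7539, 10452 and 6146 CPM in B cells (5 of 13 called higher, then 10 of 13 lower), and their part was not tested.

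Kupffer cells, the resident macrophages of the sinusoids, held the members at a high and even level: 28 type I members summed to 2032, 2272 and 2291 CPM. Of 39, 6 were higher in HFD_sed than in S, beside 8.17% of all genes, and 0 lower, beside 5.93%. With HFD_EXE set against HFD_sed 3 were lower (Parp14, Isg15 and Ifi44), beside 6.03%, and 0 higher, beside 8.51%. Ifi44 stood at 21.4, 59.3 and 36.6 CPM, Isg15 at 32.1, 65.6 and 38.6 CPM, Bst2 at 264, 456 and 443 CPM and Ifit1 at 21.3, 36.5 and 27.4 CPM. Bst2 thus stayed near its HFD_sed level in HFD_EXE, whereas Isg15 and Ifi44 were lower there. Most S Kupffer cells (85.2%) lay in cluster 4 and most of HFD_sed (85.3%) and HFD_EXE (94.8%) in cluster 5; in cluster 5 alone 15 of 39 were higher in HFD_sed than in S, beside 11.2%. Their median UMIs were 9217, 2161 and 3630 per cell, a gap in depth whose part was not tested. Immediate early genes summed to 9150, 8396 and 7806 CPM in Kupffer cells, highest in S, and their part was not tested. When free RNA with the profile of the whole library was subtracted, 18 members were lower in HFD_sed than in S. In HFD_EXE against HFD_sed 22 were then higher. This is the opposite lean, without a share of all genes beside it. That estimate took 100% of the Kupffer UMIs of HFD_sed as free RNA.

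Monocytes differed from endothelium in the second comparison. Of 39 members 15 were higher and 3 lower in HFD_sed than in S, beside 7.62% and 18.2% of all genes. With HFD_EXE set against HFD_sed 9 were higher and 1 (Irf1) lower, beside 12.2% and 4.39%. Gbp2 stood at 95.1, 278 and 243 CPM, log2 1.55 (95% interval 1.32 to 1.78) for HFD_sed over S, Ifi47 at 51, 122 and 110.4 CPM and Isg15 at 69.1, 144 and 122 CPM. In these genes HFD_EXE lay near HFD_sed and above S. Rsad2 (141, 77.7 and 139.8 CPM), Oasl1 (19.8, 13.4 and 39.1 CPM) and Iigp1 (81.5, 25.9 and 50.3 CPM) were instead lowest in HFD_sed.

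A few cells weighed on the monocyte values. The type I sum was 1382, 1738 and 1939.9 CPM, and 1043, 1725 and 1636 CPM without the 2 highest cells of each library. Cluster 8, led by Chil3 and F13a1, held 42.7%, 86.6% and 62.6% of the class, the rest being cluster 21, led by Ace. Within cluster 8, 7 of 39 members were higher and 11 lower in HFD_sed than in S, beside 7.07% and 11.9% of all genes. Both shares of members lay above those of all genes, but lower calls outnumbered higher calls there, unlike over the class. In cluster 21, 3 of 30 members were higher, a share above that of all genes of the cluster, and 4 were lower. Lower calls there were no more frequent among the members than among all genes, although they outnumbered the higher calls. Cluster 8 had a type I sum of 1819, 1805 and 2218 CPM and an interferon gamma sum of 719, 1038 and 1047 CPM. Immediate early genes summed to 9636, 16723 and 8872 CPM over the class and their part was not tested.

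Conventional dendritic cells had few calls in HFD_sed against S: 6 of 39 members were higher and 4 lower, beside 5.82% and 8.5% of all genes. At a clustering resolution of 2.0 the higher calls numbered 11, with no share of all genes beside them. With HFD_EXE set against HFD_sed 7 were higher and 1 (Gbp3) lower, beside 11.1% and 5.2%. Ifit1 stood at 8.57, 15.3 and 45.4 CPM, Rsad2 at 70.1, 31.1 and 76.9 CPM and Irf7 at 95.8, 76.4 and 143 CPM. The type I sum was 1143, 1154 and 1281 CPM, and in S it was 837 CPM without the 2 highest cells. Immediate early genes summed to 9287, 12841 and 9136 CPM in this class, and their part was not tested.

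Macrophages of cluster 14, led by Mmp12, Mmp13 and Cd207, numbered 72, 580 and 109 and so were compared only as a cluster. Of 39 members 17 were higher in HFD_sed than in S, beside 7.93% of all genes, and 8 lower in HFD_EXE than in HFD_sed, beside 6.74%. Gbp2 stood at 73.3, 226 and 61.2 CPM and Iigp1 at 121, 237 and 28.8 CPM, while Isg15 stood at 66.3, 131 and 119 CPM. The interferon gamma sum was 687, 1109 and 477 CPM and the type I sum 1933, 2564 and 2521 CPM: the first was high in HFD_sed alone, and the second in both HFD libraries. Without the 2 highest cells of each library the type I sum was 1832, 2537 and 2221 CPM, with HFD_EXE between S and HFD_sed. Immediate early genes summed to 9842, 10327 and 12485 CPM in these macrophages, and their part was not tested. In pDCs the interferon gamma sum was 440.3, 729.6 and 450.1 CPM, with Irf1 at 252, 439.8 and 188 CPM. Immediate early genes summed to 4766, 9994 and 4425 CPM and hepatocyte transcripts to 1258, 348 and 582 CPM in pDCs, and their part was not tested.

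**Figure D4:**
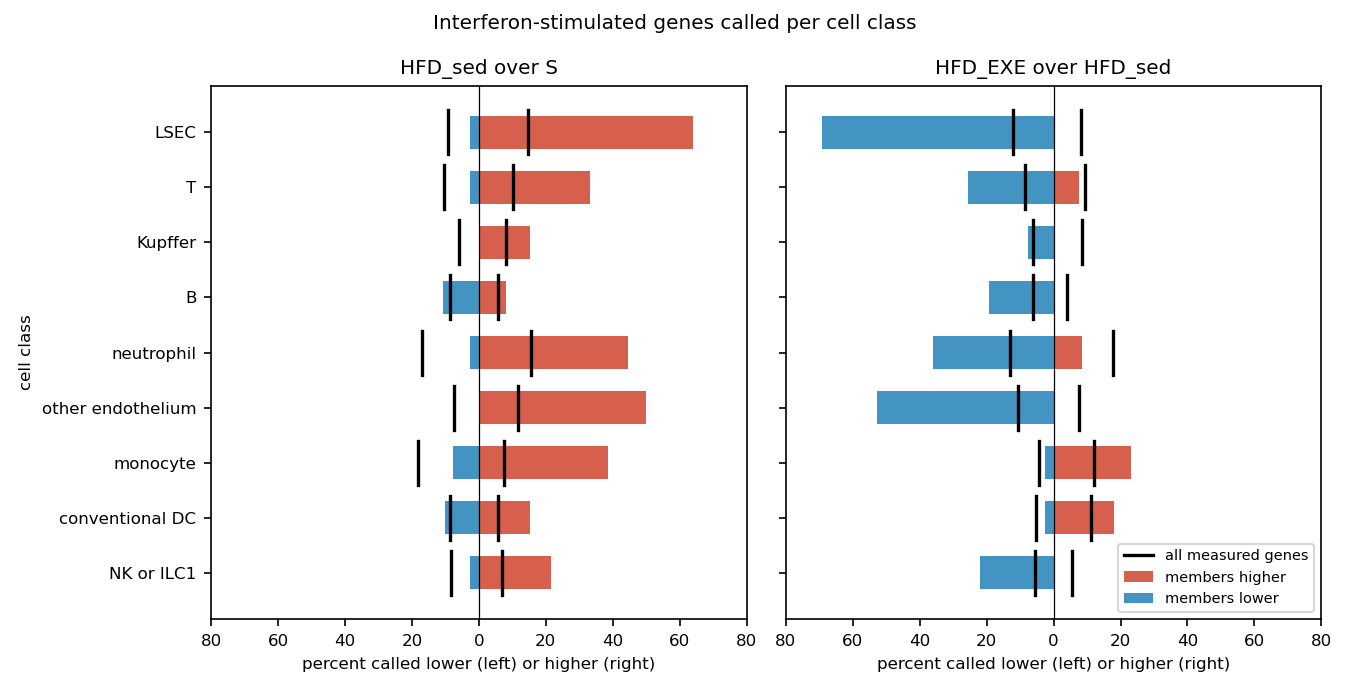
Share of measured members called higher (right of 0) or lower (left of 0) in each of the 9 compared classes, for HFD_sed over S and HFD_EXE over HFD_sed, with the share over all measured genes of the class beside it. The members exceed the background most in LSECs and other vascular endothelium, to the right in the first panel and to the left in the second, while in monocytes and conventional dendritic cells the second panel does not lean left.

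Across the 9 classes, Isg15 was called higher in HFD_sed than in S in 8 and lower in HFD_EXE than in HFD_sed in 7, the widest of the members in both counts. Gbp2 and Gbp3 were each higher in 7, Ifi44 in 6, and Ifit1, Bst2 and Zbp1 in 5. Irf9 and Stat2 were higher in none. With HFD_EXE set against HFD_sed Ifi44 was lower in 5 classes and higher in 3, and Gbp3 was lower in 5. Oasl1 was higher in 4, and Irf9, Ddx58 and Trim30a, which encode a subunit of the type I complex, RIG-I and a regulator of inflammasome signalling, were called in none. Rsad2 and Ifit3b were lower in HFD_sed than in S in 3 classes each. The number of classes in which a gene was called was not counted over all genes, so these counts have no background. In single classes 5.71% to 15.6% of all genes were higher in HFD_sed than in S. The share lower in HFD_EXE than in HFD_sed was 4.39% to 12.9%. All classes share the same libraries and are not independent.

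The ligands were scarce, apart from interferon gamma. The 10 type I and type III genes listed gave 4, 9 and 4 UMIs over all kept cells of S, HFD_sed and HFD_EXE, 15 of the 17 from Ifnb1. Ifng gave 1486, 2075 and 394 UMIs. It stood at 124, 169.7 and 76.3 CPM in T cells and 292, 136 and 78.9 CPM in NK or ILC1 cells, against 0.757, 1.93 and 0.693 CPM in LSECs, which are not known to make it. T cells were highest in HFD_sed and NK or ILC1 cells in S.

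The rest of the pathway was read in LSECs. None of 5 measured receptor genes was called in HFD_sed over S, and 2 were lower in HFD_EXE than in HFD_sed. Of 6 inhibitors 2 were higher and then 2 lower, a list that includes the member Usp18. Among 10 genes of upstream sensing 2 were higher and then 2 lower. These shares are to be read against the 14.8% and 12.1% of all genes given above.

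Other known targets were counted in the same way. In LSECs, of 32 measured type I targets outside the list 11 were higher in HFD_sed than in S, beside 14.8% of all genes, and 0 lower (median log2 0.44), and of 33 in the second comparison 9 were lower, beside 12.1%, and 1 higher. Of 25 other interferon gamma targets 6 were higher, and 11 were lower in HFD_EXE than in HFD_sed, beside the same shares. Cxcl9, a chemokine that draws T cells, stood at 117, 836 and 175 CPM, Cxcl10, of the same family, at 121, 238 and 73 CPM, Ifi209 at 1.43, 6.68 and 2.46 CPM and Slfn8 at 3.31, 9.71 and 3.71 CPM. In neutrophils 16 of 23 other interferon gamma targets were higher in HFD_sed, beside 15.6% of all genes, and 16 of 21 lower in HFD_EXE, beside 12.9%.

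In other classes the same rule named Cxcl9 and Cxcl10 repeatedly, and other pathway genes in either direction. In Kupffer cells Ifit1bl1 (9.93 and 3.14 CPM in S and HFD_sed) and Lgals3bp (474 and 305 CPM) were lower in HFD_sed. Trim25 was higher in HFD_EXE than in HFD_sed there (548 against 315 CPM), and Ciita lower (9.64 against 23.6 CPM). In T cells Ifitm1 was higher in HFD_sed than in S (14 against 5.58 CPM). Ifitm2 was higher there in HFD_EXE than in HFD_sed (127 against 65.3 CPM). In monocytes Cd274 and Socs3 were lower in HFD_EXE than in HFD_sed. Cxcl10 stood at 132, 563 and 435 CPM in monocytes and 13.3, 50.4 and 16.2 CPM in T cells, and Cxcl9 at 198, 538 and 969 CPM in monocytes, where HFD_EXE was the highest library, and 54.6, 177 and 102 CPM in Kupffer cells. Gbp5, a GTPase outside the list, stood at 26, 104 and 104 CPM in monocytes. Cxcl9 in T cells, at 2.63, 41.6 and 20.1 CPM, is made chiefly by endothelium and myeloid cells, and the part of RNA from other cells in that value was not tested.

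The spread over single cells showed how widely the members were carried. Each cell was thinned to 2000 UMIs, shallower cells were left out, and cells with at least 3 of the 28 type I members were counted. In LSECs 36.9, 53.4 and 33.4% of cells passed in S, HFD_sed and HFD_EXE (exact binomial 95% intervals 35.1 to 38.6%, 51.3 to 55.5% and 32 to 34.8%), with 95, 233 and 710 cells left out. Without thinning the shares were 84.3, 80.01 and 68.1%, with S the highest. In other vascular endothelium the thinned shares were 36.3, 48.5 and 29.8%, in T cells 14.7, 26.3 and 19%, and in neutrophils 35.7, 45.8 and 40.5%. In these classes too HFD_sed had the largest thinned share. Its interval overlapped that of S in other vascular endothelium (40.6 to 56.4% against 30.4 to 42.5%). In neutrophils it overlapped that of HFD_EXE (40.7 to 50.9% against 36.5 to 44.7%). Without thinning the shares in S, HFD_sed and HFD_EXE were 82.1, 83.6 and 74.0% in other vascular endothelium. They were 58.7, 43.9 and 50% in T cells and 48.4, 50.2 and 55.9% in neutrophils, where HFD_sed was not the highest.

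In Kupffer cells the thinned shares were high in all libraries, 59.7, 63.5 and 67.9%, with 250, 323 and 301 cells left out. In monocytes they were 26.8, 38.6 and 37.4%, in Mmp12 macrophages 52.8, 69.1 and 62%, in B cells 11.2, 10.8 and 8.01% and in NK or ILC1 cells 15.1, 18.5 and 18.7%. The members were also unevenly shared within classes. In neutrophils of S the top 5% of cells held 33.6% of the thinned type I UMIs, in Kupffer cells of S 14.6%, and in LSECs 19.6, 23.9 and 24.3%.

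**Figure D5:**
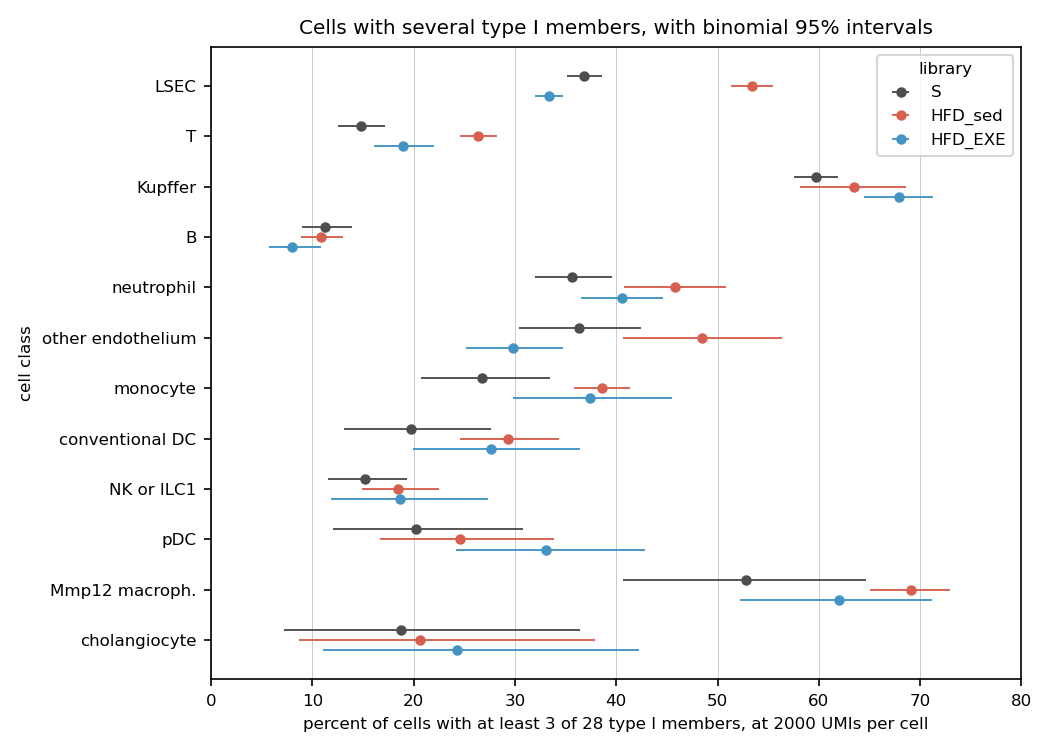
Percent of cells with at least 3 of 28 type I members after thinning to 2000 UMIs per cell, in each class and library, with exact binomial 95% intervals over cells, which are not replicates. In LSECs the HFD_sed point lies at 53.4%, above 36.9% in S and 33.4% in HFD_EXE, while in Kupffer cells the 3 points lie at 59.7% to 67.9%.

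Iigp1 moved apart from the other GTPases in several classes and beside hepatocyte RNA. It was lower in HFD_sed than in S in B cells (78.5, 28.8 and 14.3 CPM), NK or ILC1 cells (82.3, 14.1 and 21.5 CPM) and monocytes (81.5, 25.9 and 50.3 CPM). Hepatocyte transcripts summed to 1849, 603 and 848, 1771, 539 and 729.8 and 1549, 912 and 1041 CPM in the same classes, S being highest in each. Iigp1 was the one GTPase member highest in hepatocytes, and the part of hepatocyte RNA in its level elsewhere was not tested.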

How the data were processed

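Raw UMI counts per gene and cell, deposited as 1 filtered matrix per library, were made by the authors with Cell Ranger 6.1.2 and the GRCm39 build, per the submitters' processing notes; no source used here gives further settings. Cells with at least 500 UMIs, 300 genes and at most 15% mitochondrial UMIs were kept, and doublets were removed with Scrublet at 1 threshold of 0.219 for all libraries, since the automatic threshold marked 0 cells of HFD_EXE. The 3 libraries were clustered together (2000 variable genes without interferon genes, 30 principal components, 15 neighbours, Leiden resolution 1) in Scanpy 1.11.5 (Python 3.11.15, leidenalg 0.10.2, SciPy 1.17.1). A cluster was named from fixed markers when at least 3 passed; the comparison group for leading genes was set after clusters were seen, and a cluster with a second type at 0.4 or more of the first type's score was left as mixed.

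UMIs were summed per class and library, as CPM with exact Poisson intervals; ratios have exact conditional binomial intervals. There was 1 sample a group and so no test. The interval and call code was tested on simulated data. The 39 members and all gene lists were chosen with earlier results of these data known. Named genes are, per class and direction, the 4 members with the interval bound farthest from no change, those against the majority, the 3 such pathway genes in LSECs, Kupffer cells, T cells and monocytes, and further members given by role. Alternatives covered the UMI minimum, fold, scaling, cell filter, doublets, resolution, naming, free RNA and single clusters. One group of pathway genes is not reported here.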

Additional observations from a re-analysis of the deposited data

How the results depend on the processing

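Counts of members called higher or lower in the 9 classes (36 counts) were recomputed under each alternative: 360 of 490 stayed within 1.5 times the count reported, and 130 moved further. The more frequent direction of a class's calls turned in 13 of 245 such pairs of counts and tied in 4: it turned with free RNA of the whole library subtracted (both comparisons in Kupffer cells, the second in T and B cells), in single clusters (6 of T cells and 7 of neutrophils in the second, 8 and 21 of monocytes and 16 of NK or ILC1 cells in the first), and for B cells (past 2-fold, in cells of at least 1500 UMIs, with classes set by the marker mean) and conventional dendritic cells (past 2-fold) in the first. The first comparison is HFD_sed over S and the second HFD_EXE over HFD_sed; a count not given below stayed within 1.5 times, and the cause of a move was not tested, except that a stricter fold or minimum, or fewer cells, leaves fewer calls by construction. Counts under alternatives other than single clusters are given here and above without a share of all genes. At resolution 0.5 the cluster led by Esm1, Depp1 and Angpt2, with 2184 HFD_sed cells, had no name. At resolution 2.0 clusters of 2021 and 672 S cells with LSEC markers had no name, and conventional dendritic cells had no value at resolution 0.5 or with classes set by the marker mean. Free RNA of the whole library was estimated at 100% of neutrophil UMIs in S and HFD_sed and of Kupffer UMIs in HFD_sed, so that subtraction leaves little; the profile of cells under 1000 UMIs, chosen after seeing the data, gave 5.53% to 27.8%. Single clusters and the count with mixed LSEC and hepatocyte clusters taken as LSECs (24 higher, 1 lower, then 0 higher and 26 lower) were also chosen after seeing the data. With at least 100 UMIs per gene, higher calls numbered 0 in B cells and 4 in NK or ILC1 cells and lower calls numbered 0 in T cells and 2 in B cells in the first comparison, and lower calls numbered 2 in B cells and 4 in NK or ILC1 cells in the second. Past 2-fold, in the first comparison higher calls numbered 10 in LSECs, 5 in T cells, 3 in Kupffer cells, 6 in other vascular endothelium, 5 in monocytes, 1 in conventional dendritic cells and 3 in NK or ILC1 cells and lower calls numbered 0 in LSECs, 0 in T cells, 2 in B cells, 0 in neutrophils and 2 in conventional dendritic cells. In the second comparison higher calls numbered 1 in T cells, 1 in neutrophils and 3 in monocytes and lower calls numbered 13 in LSECs, 2 in T cells, 0 in Kupffer cells, 8 in other vascular endothelium, 0 in monocytes, 0 in conventional dendritic cells and 4 in NK or ILC1 cells. Scaled without mitochondrial, ribosomal protein and haemoglobin genes, lower calls numbered 2 in T cells in the first comparison, and lower calls numbered 2 in conventional dendritic cells in the second. Centred on the median of all genes, lower calls numbered 2 in T cells, 1 in Kupffer cells and 2 in NK or ILC1 cells in the first comparison, and lower calls numbered 2 in conventional dendritic cells in the second. In cells of at least 1500 UMIs, lower calls numbered 1 in Kupffer cells and 2 in B cells in the first comparison, and higher calls numbered 1 in Kupffer cells in the second. With doublets kept, lower calls numbered 2 in T cells and 2 in NK or ILC1 cells in the first comparison, and higher calls numbered 1 in T cells and 1 in Kupffer cells and lower calls numbered 0 in monocytes in the second. At resolution 0.5, higher calls numbered 8 in other vascular endothelium and lower calls numbered 2 in LSECs and 4 in other vascular endothelium in the first comparison, and higher calls numbered 1 in LSECs, 1 in other vascular endothelium and 5 in monocytes and lower calls numbered 11 in other vascular endothelium and 3 in monocytes in the second. At resolution 2.0, higher calls numbered 16 in LSECs and 11 in conventional dendritic cells and lower calls numbered 0 in LSECs and 0 in T cells in the first comparison, and lower calls numbered 0 in conventional dendritic cells in the second. With classes set by the marker mean of single cells, lower calls numbered 0 in LSECs, 2 in B cells, 0 in neutrophils and 7 in monocytes in the first comparison, and higher calls numbered 0 in T cells, 1 in neutrophils and 2 in NK or ILC1 cells and lower calls numbered 3 in NK or ILC1 cells in the second. With interferon genes kept for clustering, lower calls numbered 2 in NK or ILC1 cells in the first comparison, and higher calls numbered 1 in T cells and 2 in Kupffer cells and lower calls numbered 5 in Kupffer cells in the second. With free RNA of the whole library subtracted, in the first comparison higher calls numbered 1 in B cells and 5 in NK or ILC1 cells and lower calls numbered 7 in LSECs, 2 in T cells, 18 in Kupffer cells, 2 in B cells, 2 in neutrophils, 1 in other vascular endothelium, 8 in monocytes and 0 in NK or ILC1 cells. In the second comparison higher calls numbered 8 in LSECs, 11 in T cells, 22 in Kupffer cells, 8 in B cells, 8 in neutrophils, 18 in monocytes, 11 in conventional dendritic cells and 3 in NK or ILC1 cells and lower calls numbered 6 in T cells, 1 in Kupffer cells, 0 in B cells, 4 in monocytes, 0 in conventional dendritic cells and 3 in NK or ILC1 cells. With free RNA of the profile of cells under 1000 UMIs subtracted, lower calls numbered 3 in T cells, 3 in Kupffer cells, 2 in neutrophils, 5 in monocytes and 3 in NK or ILC1 cells in the first comparison, and higher calls numbered 2 in LSECs, 5 in T cells and 1 in Kupffer cells in the second.

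Taken alone, cluster 0 of LSECs gave 1 higher in the second and 13 lower in the second. Cluster 1 of LSECs gave 14 higher in the first and 14 lower in the second. Cluster 5 of Kupffer cells gave 15 higher in the first, 2 lower in the first and 2 higher in the second. Cluster 6 of T cells gave 4 higher in the first, 3 lower in the first, 6 higher in the second and 4 lower in the second. Cluster 7 of neutrophils gave 4 higher in the first, 0 lower in the first and 2 lower in the second. Cluster 8 of monocytes gave 7 higher in the first, 11 lower in the first and 0 lower in the second. Cluster 10 of T cells gave 5 higher in the first, 1 higher in the second and 4 lower in the second. Cluster 11 of T cells gave 5 higher in the first and 0 lower in the first. Cluster 13 of T cells gave 2 lower in the first and 0 higher in the second. Cluster 16 of NK or ILC1 cells gave 3 higher in the first, 5 lower in the first, 1 higher in the second and 2 lower in the second. Cluster 18 of NK or ILC1 cells gave 0 lower in the first. Cluster 21 of monocytes gave 3 higher in the first and 2 higher in the second. Depth limits the members with few UMIs: 32 of 39 were measured in NK or ILC1 cells in the second comparison, and differences in the others were not detectable there. No paired analysis was possible because each group has 1 library and no test was run.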

Other observations

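Cholangiocytes, the cells of the bile ducts, were too few to compare (32, 34 and 34 cells in S, HFD_sed and HFD_EXE). Their 28 type I members summed to 607, 1079 and 1588 CPM, and to 567, 814 and 744 CPM without the 2 highest cells of each library. Most of the excess in HFD_EXE thus came from 2 of 34 cells. Isg15 stood at 11.4, 85.4 and 214 CPM, Ifit1 at 26.6, 60.6 and 147 CPM and Ifit3 at 3.80, 16.5 and 101 CPM in this class.

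Hepatocytes carried over into the preparation (136, 85 and 290 cells) held Isg15 at 9.64, 61.8 and 25.6 CPM, with 95% intervals of 4.81 to 17.3, 34.6 to 102 and 17.6 to 35.9 CPM. HFD_sed was the high library, as in the endothelial classes, at a median of 1024 UMIs per cell. Ifi27l2a stood at 18.4, 107 and 37.2 CPM in the same cells, and Bst2 at 164, 94.7 and 206 CPM, lowest in HFD_sed. The part of RNA from other cells in these hepatocyte values was not tested.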
